A study of Mus musculus with 16 samples.

Results

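DEAD-box and DEAH-box proteins are the main families of RNA helicases, here taken as the protein-coding genes whose GENCODE M21 symbol is Ddx or Dhx followed by a number. Of 54 genes with such a symbol, 53 were protein-coding and 4 of these were left out because they lie on a sex chromosome or were excepted by name. The remaining 49 genes, 34 named Ddx and 15 named Dhx, lie on 14 chromosomes and were read from a table of 55536 annotated genes. In a table of splicing nodes (stretches of RNA that a transcript includes or skips), 789 of 125520 nodes belonged to 47 of these genes. All cells were CD8+ T cells of OT-I transgenic C57BL/6J mice, whose T cell receptor recognizes a peptide of ovalbumin. They were electroporated with Cas9 and either a scrambled guide (Control gRNA, 8 libraries) or a guide against Tardbp (Tardbp gRNA, 8 libraries), and transferred into C57BL/6J mice. Both groups received antigen with agonist antibodies to OX40 and 4-1BB (anti-OX40, anti-41BB) and were sorted from spleen and lymph nodes. The study's methods describe its OT-I mice as deficient in Rag1 or Rag2, without saying which for each library. The labels give 4 days, while the methods give a shorter time, and the methods state age ranges for mice of the whole study rather than for each library. The study's text also names a stimulation after purification, and it is unclear from it whether the sequenced cells received this. Cas9 was delivered to a population of cells, so a library can hold edited and unedited cells, and although the study's text describes cells purified from individual recipient mice, 8 per group, no label ties a library to a mouse. The p-values measure the spread between these libraries.

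These helicases use ATP to unwind short RNA duplexes or to strip proteins from RNA. DEAD-box members act locally on a duplex, often under the control of a partner protein, whereas many DEAH-box members move along a strand and several are switched on by proteins with a G-patch. Together they serve ribosome assembly, splicing, export of mRNA from the nucleus, translation and decay of mRNA. Activated CD8+ T cells make many ribosomes as they grow and divide. TDP-43, the product of Tardbp, is an RNA-binding protein that regulates splicing.

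The libraries held 56016533 to 94801105 estimated counts in annotated genes, and the ranges of the 2 groups overlapped. Tardbp, the targeted gene, had 171.8 to 206.9 CPM (counts relative to library size, scaled with TMM factors) in Control libraries and 110.4 to 147.2 in Tardbp libraries. It fell by 0.51 on the log2 scale (SE 0.056, edgeR adjusted p 8.07e-07). These values are of RNA, and the study reports from an immunoblot that cells given the Tardbp guide did not make the protein. The RNA concentration in the deposited annotation lay between 34.9 and 197.1 for Control libraries and between 10.1 and 24.0 for Tardbp libraries (its unit is not stated), so that concentration and group cannot be told apart. All 6 CD8 T cell markers were present and higher in Tardbp gRNA, with sums of 3408 to 4271 CPM among Control and 5211 to 6697 among Tardbp libraries. The summed red cell precursor markers were 0.442 to 17.4 CPM and 9.02 to 181.5 CPM (4 of 6 higher), myeloid markers 14.8 to 35.9 and 19.1 to 79.7 (2 of 6 higher), B cell markers 389.0 to 475.2 and 552.7 to 721.5 (1 of 6 higher), and CD4 T cell markers 4.39 to 20.7 and 6.15 to 15.6, and no listed marker was at 0 in every library. The part of these differences in the helicase results was not tested. In bulk RNA, fewer cells of a type and less RNA per cell cannot be told apart.

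Most helicase genes were lower in Tardbp gRNA. Of 48 members that passed the filter on low counts, 39 had an edgeR adjusted p under 0.05, and 35 of these fell while 4 rose (Ddx43, Ddx60, Dhx36 and Ddx55). Over all 16650 genes tested, 46.7% were called, 23.3% lower and 23.5% higher. The median log2 fold change was -0.30 over the 48 members and 0.05 over all genes. The groups did not overlap for 22 members. The Tardbp libraries were the lower ones for 21 of these (all genes, 10.3%) and the higher ones for 1, Ddx43 (all genes, 6.61%). All 15 Dhx genes were called (14 lower, 1 higher), as were 24 of 33 tested Ddx genes (21 lower, 3 higher). Several of these calls rested on single libraries, and Dhx57, Ddx24, Ddx49, Dhx16 and Dhx34, which had adjusted p-values of 0.037, 0.034, 0.031, 0.029 and 0.022, are the lower ones among them. Dhx57 lost its call without Control 2, Control 3 or Tardbp 3, Ddx24 without Control 5, 6 or 7, Ddx49 without Control 6 or 7, Dhx16 without Control 2 and Dhx34 without Control 5. When log2 RNA concentration was added to the model, 17 members were called (16 lower, 1 higher) and 16.2% of all genes. In the 6 libraries numbered 1 to 3 alone, 11 were called (10 lower, 1 higher) and 10.1% of all genes. In the 10 libraries numbered 4 to 8 alone, 32 were called (30 lower, 2 higher) and 40.8% of all genes. Of the 39 calls, 22 were lost with the RNA concentration, 28 in libraries 1 to 3 and 7 in libraries 4 to 8. No sample label divides the libraries at number 3. Fewer libraries enter the fits of libraries 1 to 3 and 4 to 8, which makes a call harder to reach. With the RNA concentration, the lost calls with the widest falls were Dhx9 (log2 fold change -0.53, edgeR adjusted p 0.090), Dhx33 (-0.50, edgeR adjusted p 0.11) and Ddx21 (-0.39, edgeR adjusted p 0.13). Ddx10 (-0.37, edgeR adjusted p 0.063) and Ddx19b (-0.37, edgeR adjusted p 0.11) came next. The lost calls whose size shrank by more than 1.5 times were Ddx21, Ddx27 (-0.26), Ddx54 (-0.22), Ddx18 (-0.14), Ddx47 (-0.07) and Ddx49 (-0.01), while Dhx36 grew to 0.57 (edgeR adjusted p 0.11). In libraries 1 to 3, Dhx9 (-0.60, edgeR adjusted p 0.061) and Dhx33 (-0.57, edgeR adjusted p 0.074) kept most of their size, whereas Ddx51 was -0.33 and Dhx16 -0.15 (edgeR adjusted p 0.16 and 0.56). Dhx57 was -0.52 in libraries 1 to 3, -0.18 in libraries 4 to 8 and not called in either (edgeR adjusted p 0.21 and 0.053).

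**Figure D1:**
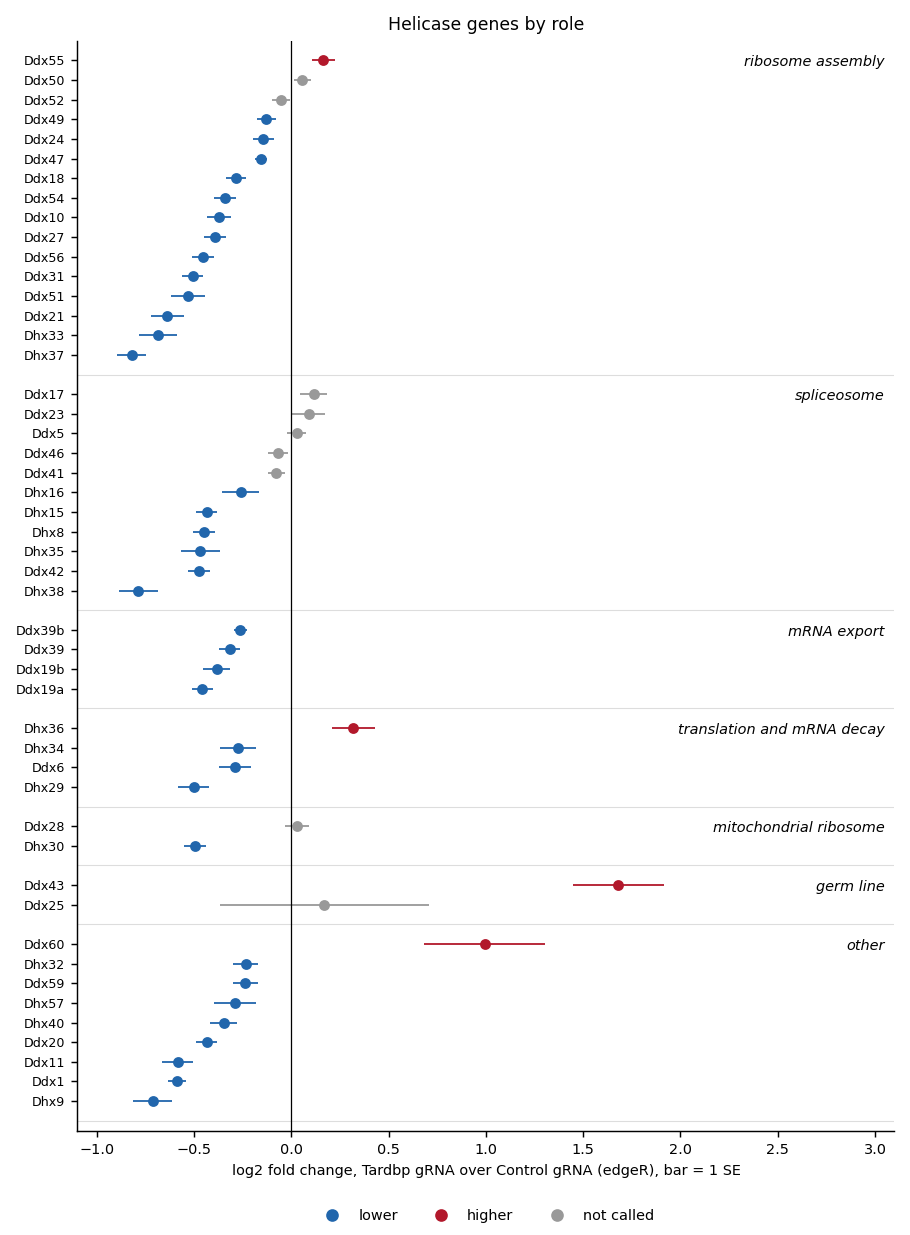
Log2 fold change of each of the 48 tested helicase genes (x axis, Tardbp gRNA over Control gRNA, edgeR, 8 libraries per group) grouped by role, with bars of 1 SE and colors for the call. Values run from -0.82 for Dhx37 to 1.68 for Ddx43, and 38 of the 48 points lie left of 0.

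Before the changes, the order of levels in Control gRNA was read as CPM per kb of exon, so that genes of different length could be compared. Ddx39, a helicase of mRNA export, stood highest at 144.4 ± 10.9 CPM per kb (SD, n = 8), followed by its relative Ddx39b at 100.8 ± 4.8, Ddx5 at 87.9 ± 4.9, Ddx1 at 67.3 ± 4.2 and Ddx56 at 55.9 ± 5.4 (each SD, n = 8). The first 4 of these each differed from the next gene by more than their SDs, while Ddx56 and the next, Ddx18 at 50.7 ± 4.4, did not. Only 10 of 48 neighboring pairs in the whole order differed beyond their SDs. These levels take in all annotated transcripts and exons of a gene, also those that keep intron sequence and have no reading frame assigned (retained intron). Such transcripts held 48.8% of the Ddx39 counts in Control gRNA, against 2.74% for Ddx39b and 0.12% for Ddx5. The order therefore need not hold for coding transcripts alone. The lowest tested members were Ddx23 at 0.989, Ddx60 at 0.655, Ddx43 at 0.357 and Ddx25 at 0.0738 CPM per kb in Control gRNA. In Tardbp gRNA, Ddx39 fell to 115.8 CPM per kb and stayed highest, and Ddx5 (89.6) and Ddx39b (84.0) lay within their SDs of each other.

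**Figure D2:**
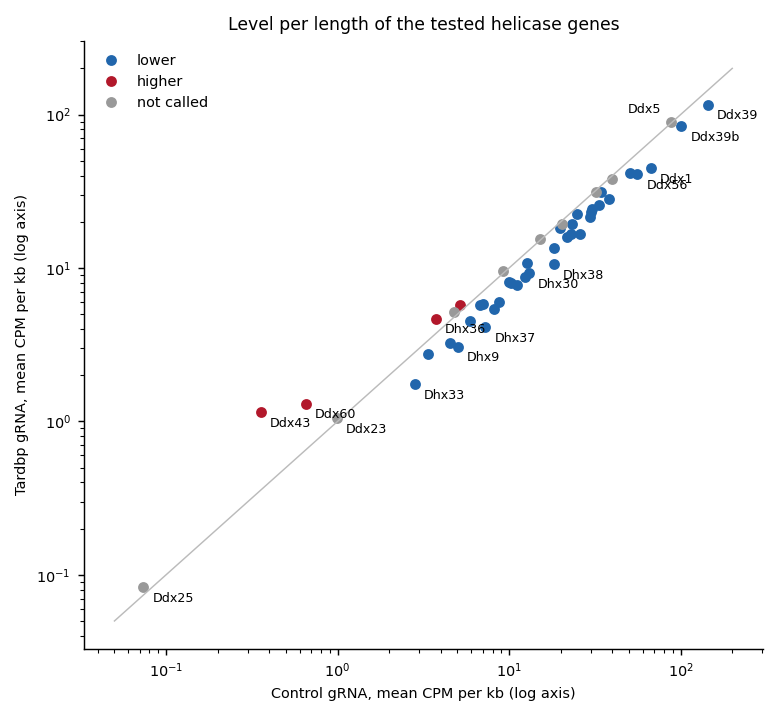
Mean level of each tested helicase gene in CPM per kb of exon, Control gRNA (x axis, log) against Tardbp gRNA (y axis, log), 8 libraries per group, with the line of equal level. Most points of lower genes lie just under the line over the whole range, from Dhx33 at 2.81 to Ddx39 at 144.4 CPM per kb in Control gRNA, while Ddx43 and Ddx60 lie above it at low levels.

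The largest role was ribosome assembly, in which 14 of 16 genes were called, 13 lower and 1 higher, with a median log2 fold change of -0.36. Dhx37 (ENSMUSG00000029480.13, chromosome 5, 125413858 to 125434121, GRCm38), which releases the U3 small nucleolar RNA from the early small subunit, fell the most of all members. Its lowest, median and highest libraries were 32.4, 35.9 and 42.8 CPM in Control gRNA and 17.8, 20.7 and 23.7 in Tardbp gRNA. The groups did not overlap, and the mean of 20.7 ± 2.2 CPM in Tardbp gRNA was 56.6% of that in Control gRNA (36.6 ± 3.5 CPM, SD, n = 8; log2 fold change -0.82, SE 0.074, edgeR adjusted p 1.33e-07). Dhx33, a nucleolar helicase that takes part in transcription of ribosomal RNA, went from 24.2, 27.2 and 33.6 CPM to 14.1, 16.8 and 21.6 (lowest, median and highest). Again no library of one group reached the other (log2 fold change -0.68, SE 0.099, edgeR adjusted p 1.70e-05). Ddx21, which binds ribosomal RNA genes and pre-rRNA in the nucleolus, went from 114.1, 129.1 and 169.6 CPM to 72.2, 82.6 and 102.6. It fell by 0.64 on the log2 scale (SE 0.085, edgeR adjusted p 6.78e-06), and its 2 highest Tardbp libraries were those numbered 1 and 2. It fell by 0.65 in libraries 1 to 3 alone and by 0.39 with the RNA concentration in the model, in neither case called (edgeR adjusted p 0.051 and 0.13).

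Ddx51, which acts in formation of the end of 28S rRNA, fell from 45.9 ± 5.4 to 31.7 ± 4.4 CPM (means ± SD of 8 libraries), and the lowest Control library (38.9 CPM) was just above the highest Tardbp library (38.6). Ddx31 fell from 44.0 ± 2.4 to 30.9 ± 2.5 CPM (means ± SD of 8 libraries), with groups apart. Ddx56, a nucleolar helicase of the large subunit and the highest of this role per length, fell from 55.9 ± 5.4 to 40.8 ± 2.4 CPM per kb (means ± SD of 8 libraries). The log2 fold changes of Ddx51, Ddx31 and Ddx56 were -0.53, -0.51 and -0.45, with edgeR adjusted p-values of 6.46e-05, 7.50e-07 and 3.18e-06. Ddx27, Ddx10, Ddx54 and Ddx18 fell by 0.39, 0.37, 0.34 and 0.29 on the log2 scale, and Ddx47, Ddx24 and Ddx49 by 0.16, 0.14 and 0.13. Ddx52 (log2 fold change -0.05, edgeR adjusted p 0.38) and Ddx50, the closest relative of Ddx21 (0.06, edgeR adjusted p 0.29), were not called. Ddx55, a helicase of the large subunit, was the exception that rose, from 27.3 ± 2.1 to 30.6 ± 2.4 CPM (means ± SD of 8 libraries; log2 fold change 0.16, edgeR adjusted p 0.032). Its groups overlapped, and the call was lost when any 1 of 12 libraries was left out (Control 1, 4, 6, 7 or 8, or any Tardbp library but number 2).

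**Figure D3:**
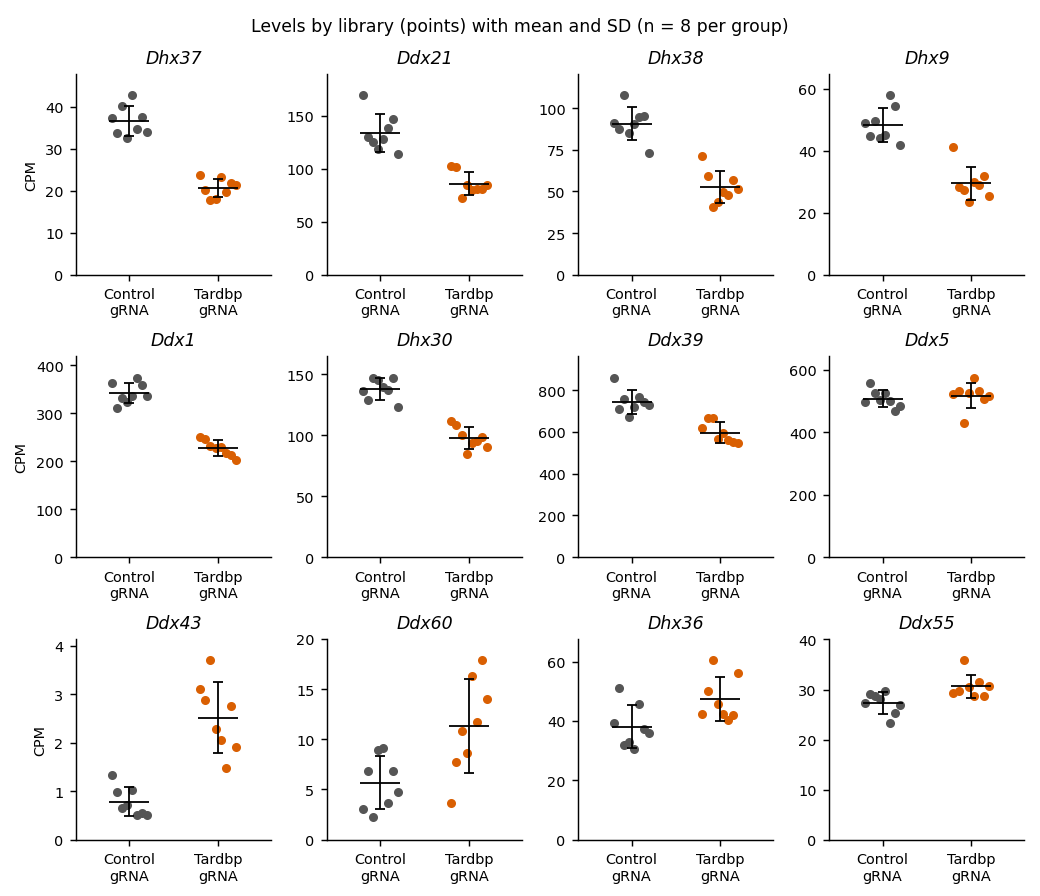
CPM of 12 helicase genes in each of the 16 libraries (points, Control gRNA left and Tardbp gRNA right) with the mean and SD of 8 libraries, y axes from 0. The groups do not overlap for Dhx37, Ddx21, Dhx38, Dhx9, Ddx1, Dhx30, Ddx39 and Ddx43, and overlap for Ddx5, Ddx60, Dhx36 and Ddx55.

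Of 11 members that work in or beside the spliceosome, 6 were lower and 5 were not called. The 6 were 5 of the DEAH-box type, Dhx38, Dhx35, Dhx8, Dhx15 and Dhx16, and the DEAD-box gene Ddx42. Dhx38, which remodels the spliceosome between the 2 catalytic steps, had 72.8, 90.6 and 107.9 CPM in Control gRNA (lowest, median and highest) and 40.5, 50.4 and 71.0 in Tardbp gRNA. The lowest Control library, number 8, lay just above the highest Tardbp library, number 1 (log2 fold change -0.79, SE 0.10, edgeR adjusted p 4.17e-06). Dhx8, which releases the spliced mRNA, fell from 108.9 ± 7.4 to 79.8 ± 6.6 CPM (means ± SD of 8 libraries), and Dhx15, which takes the used spliceosome apart, from 325.6 ± 21.3 to 241.0 ± 20.5 (means ± SD of 8 libraries). Dhx16, which starts the first step, fell by 0.26 on the log2 scale, Dhx35 by 0.47 and Ddx42 by 0.48.

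The 5 spliceosome members that were not called were DEAD-box genes. Ddx5, which with its relative Ddx17 acts in splicing and transcription, had 467.5, 502.1 and 558.9 CPM in Control gRNA and 429.6, 524.2 and 575.0 in Tardbp gRNA. Its log2 fold change was 0.03 (SE 0.049, edgeR adjusted p 0.69) and that of Ddx17 was 0.11 (SE 0.069, edgeR adjusted p 0.19). Ddx46 (-0.07), Ddx41 (-0.08) and Ddx23 (0.09) had edgeR adjusted p-values of 0.27, 0.14 and 0.43. Ddx46 acts when U2 joins the branch site, and Ddx23 when U6 replaces U1 at the 5′ splice site.

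All 4 export helicases fell, by 0.26 to 0.46 on the log2 scale. Ddx39b, which loads export factors onto mRNA, went from 354.4, 378.7 and 405.3 CPM to 294.5, 319.3 and 336.0, with no overlap (log2 fold change -0.26, SE 0.035, edgeR adjusted p 7.15e-06). Ddx39, which can stand in for it, went from 669.6, 734.7 and 860.6 CPM to 549.1, 578.7 and 668.9, so that the nearest libraries of the 2 groups almost met. Ddx19a, which strips proteins from mRNA at the nuclear pore, fell from 68.1 ± 5.1 to 49.6 ± 2.8 CPM (means ± SD of 8 libraries; log2 fold change -0.46, SE 0.052, edgeR adjusted p 1.27e-06). The neighboring Ddx19b fell by 0.38. Ddx19a and Ddx19b are near-identical copies beside each other on chromosome 8, so the split of reads between them is uncertain.

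In translation and mRNA decay, 3 of 4 genes fell and 1 rose. Dhx29, which helps the small subunit scan structured 5′ ends, fell from 66.4 ± 6.1 to 46.8 ± 5.9 CPM (means ± SD of 8 libraries; log2 fold change -0.50, SE 0.080, edgeR adjusted p 4.63e-05). Ddx6, a repressor of translation that promotes removal of the mRNA cap, fell by 0.29 and Dhx34, a factor of nonsense-mediated decay, by 0.27. Dhx36, which unwinds G-quadruplex structures, rose from 38.1 ± 7.2 to 47.5 ± 7.4 CPM (means ± SD of 8 libraries; log2 fold change 0.32, SE 0.111, edgeR adjusted p 0.026). Its groups overlapped, and it was no longer called without Control 3, 4, 5 or 8 or without Tardbp 3, 4 or 8. In the mitochondrial ribosome role, Dhx30 fell and Ddx28 was not called (34.2 ± 1.2 and 34.9 ± 3.6 CPM, means ± SD of 8 libraries; edgeR adjusted p 0.75).

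Of 9 other members, 8 fell and 1 rose. Ddx1 (chromosome 12, 13216973 to 13249213), a subunit of the tRNA ligase complex, had the smallest adjusted p of all members. It went from 312.0, 335.5 and 374.5 CPM to 202.5, 228.1 and 250.6, with no overlap (log2 fold change -0.59, SE 0.048, edgeR adjusted p 5.90e-08). Dhx9, also called RNA helicase A, acts on long duplexes and on R-loops, and went from 41.9, 47.0 and 58.0 CPM to 23.4, 28.5 and 41.2. The highest Tardbp library was number 1, just under the lowest Control library (log2 fold change -0.71, SE 0.099, edgeR adjusted p 1.16e-05). Ddx11, which despite its name is a DNA helicase of sister chromatid cohesion, fell from 53.8 ± 5.2 to 35.9 ± 4.5 CPM (means ± SD of 8 libraries; edgeR adjusted p 8.96e-06). Ddx20, a subunit of the SMN complex that builds small nuclear ribonucleoproteins, fell by 0.44 on the log2 scale, and Dhx40, Dhx57, Ddx59 and Dhx32 by 0.35, 0.29, 0.24 and 0.24.

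Ddx60, an interferon-inducible gene with a role in antiviral sensing, rose from 5.69 ± 2.64 to 11.3 ± 4.7 CPM (means ± SD of 8 libraries; log2 fold change 0.99, SE 0.312, edgeR adjusted p 0.014). Its lowest, median and highest libraries were 2.22, 5.79 and 9.11 CPM in Control gRNA and 3.67, 11.3 and 17.9 in Tardbp gRNA, and the groups overlapped. Its coefficient of variation was 46.4% in Control gRNA and 41.3% in Tardbp gRNA, and the call was lost in libraries 1 to 3 alone (log2 fold change 0.82, edgeR adjusted p 0.32) and with the RNA concentration as a covariate (1.46, edgeR adjusted p 0.21). Members known from the germ line were near the floor. Ddx4, the Vasa gene of germ cells, had 3 counts in Control 8 and 0 in the other 15 libraries and was not tested. Ddx25, a testis helicase, had 0 to 104 counts per library and was not called. Ddx43 (ENSMUSG00000070291.4, chromosome 9, 78395777 to 78423587), a helicase best known from testis and tumors, had 40 to 94 counts in Control and 108 to 296 in Tardbp libraries. In CPM its lowest, median and highest libraries were 0.516, 0.685 and 1.34 against 1.47, 2.52 and 3.71, so that the groups did not overlap at a low level (log2 fold change 1.68, SE 0.233, edgeR adjusted p 1.08e-05).

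Genes that work with these helicases were taken from 4 further lists, which were chosen with earlier results of these data known. Of 19 other RNA helicases tested, 13 fell and 0 rose by edgeR (14 at an unadjusted p under 0.05, 0 of them higher), with a median log2 fold change of -0.32. The lowest was Snrnp200, the helicase that unwinds U4 from U6, which fell from 223.0 to 121.5 CPM (log2 fold change -0.88, edgeR adjusted p 8.96e-07), and the mildest call was Eif4a3 of the exon junction complex at -0.21. Of 19 partners of DEAD-box helicases, 12 fell and 1 rose. Nup214, which docks Ddx19 at the nuclear pore, fell from 104.1 to 54.8 CPM (log2 fold change -0.93, edgeR adjusted p 1.46e-07), whereas Pdcd4, an inhibitor of the helicase eIF4A, rose from 24.5 to 54.2 CPM (1.14, edgeR adjusted p 1.10e-07). Of 32 other ribosome assembly factors, 26 fell and 0 rose by edgeR (28 at an unadjusted p under 0.05, 0 of them higher), with a median of -0.45. The calls ran from Rrp12, which fell from 79.6 to 37.3 CPM, to Gar1, which fell from 83.5 to 71.6 CPM and lost its call without Control 6, Control 7 or Tardbp 3. The G-patch partners of DEAH-box helicases went both ways, with 5 of 18 higher and 5 lower and a median of -0.04. Zgpat was the highest at 0.44 (edgeR adjusted p 2.23e-06) and Gpatch1 the lowest at -0.39 (edgeR adjusted p 0.00028).

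**Figure D4:**
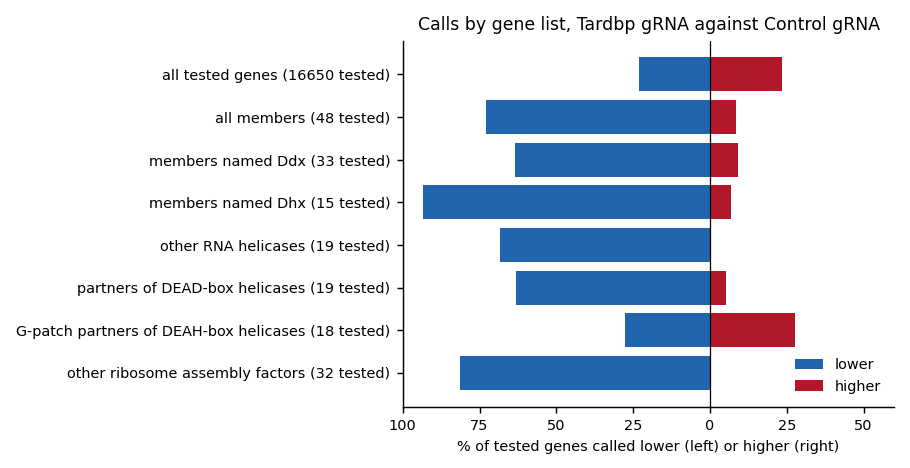
Percent of the tested genes of each list that were called lower (left, blue) or higher (right, red) in Tardbp gRNA, edgeR adjusted p under 0.05. All genes stand at 23.3% lower and 23.5% higher, while helicases and their lists lean to the lower side except the G-patch partners, with 5 genes each way. The lists were chosen with earlier results of these data known.

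Letters in the promoters were read because many members moved together. RefSeq windows (GRCm38.p6, from 250 bases before to 50 bases after a start) were found for 44 members, all but Ddx11, Ddx23, Ddx39, Ddx6 and Dhx38. The ETS-type letters CCGGAAG, on either strand, stood in the windows of 19 of 44 members (43.2%), against 20.7% of 10318 tested genes and 9.93% of all 27025 genes with a window. They were in 14 of 31 members that fell (45.2%) and 5 of 13 others (38.5%), while over all tested genes they were in 24.2% of those called lower, 21.7% of those called higher and 18.2% of those not called. The E-box letters CACGTG were in 7 of 44 members (15.9%, tested genes 11.5%) and the TATA letters TATAAA, on either strand, in 5 of 44 (11.4%, tested genes 8.85%). The 250 bases before the start are shown for the 3 fallen members with the lowest log2 fold changes whose window holds CCGGAAG outside the annotated gene body. They are Dhx9 (chr1:153487661-153487910, minus strand), Dhx35 (chr2:158794557-158794806, plus strand) and Ddx10 (chr9:53248113-53248362, minus strand), with CCGGAAG in capitals:
Dhx9: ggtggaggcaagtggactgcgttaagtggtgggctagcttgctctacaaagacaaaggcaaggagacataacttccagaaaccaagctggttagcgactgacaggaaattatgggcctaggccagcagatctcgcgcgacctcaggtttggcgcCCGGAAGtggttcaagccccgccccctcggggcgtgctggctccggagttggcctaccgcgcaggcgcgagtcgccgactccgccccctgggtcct
Dhx35: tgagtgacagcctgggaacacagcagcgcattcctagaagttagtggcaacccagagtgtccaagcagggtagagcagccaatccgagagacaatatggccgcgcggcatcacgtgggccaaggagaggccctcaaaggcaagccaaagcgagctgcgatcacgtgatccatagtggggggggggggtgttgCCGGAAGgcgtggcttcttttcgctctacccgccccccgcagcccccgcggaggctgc
Ddx10: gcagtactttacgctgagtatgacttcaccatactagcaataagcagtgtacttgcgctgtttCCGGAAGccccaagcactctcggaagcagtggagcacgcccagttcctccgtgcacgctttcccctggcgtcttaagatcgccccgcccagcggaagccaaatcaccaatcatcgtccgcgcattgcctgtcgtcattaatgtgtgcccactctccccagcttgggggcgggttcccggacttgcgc

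A gene's level can fall while the makeup of its transcripts changes, so the 270 annotated transcripts of the members were examined next. Of 151 tested, 10 rose and 29 fell, against 8.5% and 8.14% of all 40897 transcripts. The direction went with the annotated class, among members and among all genes. Among 81 protein-coding transcripts of the members 3 rose and 27 fell (all genes, 7.08% and 12.9%). Another 55 were annotated as retained intron, which keep intron sequence and have no reading frame assigned. Of these, 7 rose and 1 fell, close to the share over all genes (10.5% and 1.43%). Median log2 fold changes were -0.33 for coding and 0.08 for retained-intron transcripts of members (all genes, -0.06 and 0.24). The 3 coding transcripts that rose were Ddx43-201, Ddx60-201 and Ddx39b-205, and the 7 with a retained intron were Dhx9-206, Dhx30-208, Dhx36-204, Ddx23-207, Ddx41-205, Ddx50-203 and Ddx50-204. The only tested coding transcripts of Dhx37, Dhx38 and Dhx8 fell by 0.86, 0.83 and 0.49 on the log2 scale, close to their genes.

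As a share of its gene, which does not depend on the scaling between libraries, 10 of 139 member transcripts had a limma adjusted p under 0.05 (all genes, 4.45%), and 3 of these also differed by more than 0.1 (all genes, 0.63%). Of the 10, 7 were retained-intron transcripts and all 7 rose. The 3 with the wider difference were Ddx23-201, the coding form, which fell from 0.589 ± 0.071 to 0.353 ± 0.093 of the gene's counts, Ddx23-207, a retained-intron form, which rose from 0.218 ± 0.067 to 0.358 ± 0.063, and the coding Dhx9-202, which fell from 0.568 ± 0.087 to 0.226 ± 0.249 (each mean ± SD of 8 libraries; limma adjusted p 0.0041, 0.020 and 0.047). Dhx9-202 ranged from 0 to 0.586 of the gene among Tardbp libraries, and with the replicate number as a block its adjusted p was 0.18, which left 2 called.

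The retained-intron transcripts of each gene were then added up, a measure chosen after these values were seen. The share could be formed for 29 members and was positive in its difference for 24 of them, as it was for 74.8% of 4795 genes. Of the 29, 5 rose and 0 fell by limma (1 fell at an unadjusted p under 0.05), against 14.3% and 0.688% of all genes. The median difference was 0.31 percentage points over the 29 members and 0.39 over all 4795 genes. Dhx9 rose the most clearly, from 6.24, 8.97 and 11.5% of its counts (lowest, median and highest) in Control gRNA to 15.6, 20.2 and 23.3% in Tardbp gRNA, with no overlap (difference 11.1 percentage points, SE 0.958, limma adjusted p 1.11e-05). Dhx29 went from 1.19, 1.78 and 2.57% to 2.81, 3.27 and 4.30%, and Ddx23 from 27.7, 42.0 and 51.6% to 51.8, 63.1 and 78.5%, neither with overlap (limma adjusted p 0.0012 and 0.0015). Ddx50 (11.1 ± 1.8 to 15.9 ± 2.9%) and Dhx30 (4.71 ± 1.03 to 8.30 ± 2.81%) rose with overlapping groups (means ± SD of 8 libraries; limma adjusted p 0.013 and 0.029). With the RNA concentration as a covariate or in libraries 1 to 3 alone, 0 members were called by limma, and 4 and 2 of all 4795 genes. The differences were 9.21 and 10.9 percentage points for Dhx9 (limma adjusted p 0.22 and 0.25), 1.56 and 1.32 for Dhx29 (limma adjusted p 0.45 and 0.32) and 17.5 and 29.0 for Ddx23 (limma adjusted p 0.58 and 0.30).

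**Figure D5:**
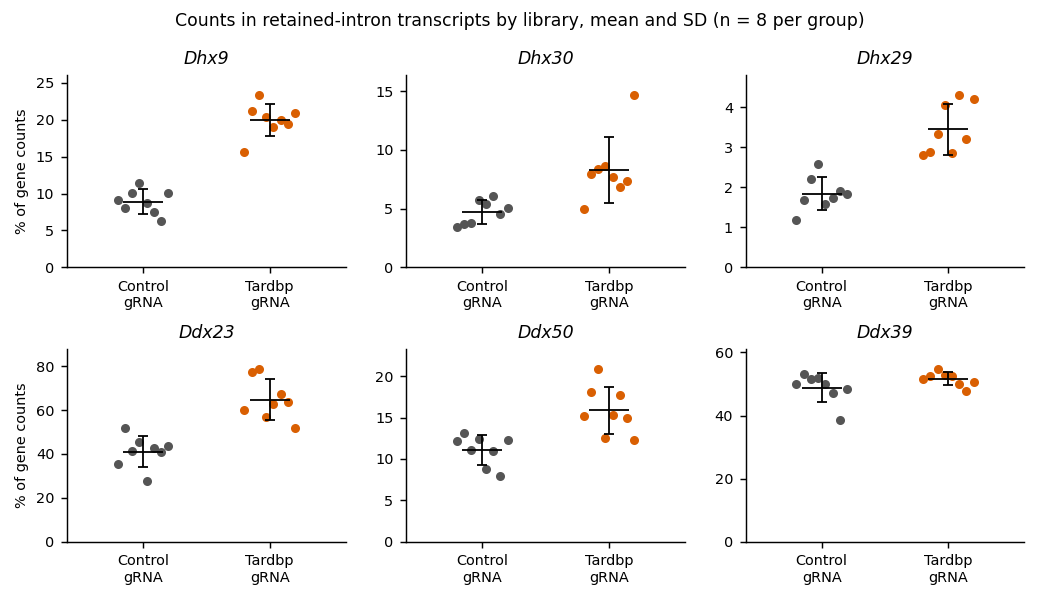
Percent of the counts of a gene in transcripts annotated as retained intron, for each of 16 libraries (points) with the mean and SD of 8 libraries per group. The groups are apart for Dhx9, Dhx29 and Ddx23, while Dhx30 has 1 Tardbp library, number 8, at 14.7%, and Ddx39, shown as a member that was not called, has means of 48.8% and 51.6%.

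The 7 retained-intron transcripts whose share rose are not the same set as the 7 named above, whose level rose. Of those with a risen share, Dhx9-206 and Dhx30-208 span a whole intron of another annotated transcript. Dhx36-204 and Ddx41-205, which rose in level and were not among those with a risen share, also span whole introns. The intron of Dhx9-206 has 676 bases (chr1:153478190-153478865, GRCm38, minus strand), lies between coding exons and has 39.2% GC. Its 5′ and 3′ ends are shown because they are the splice sites that Dhx9-206 does not use, with the first and last 2 bases of the intron (GT and AG) in capitals:
Dhx9 intron, first 100 bases: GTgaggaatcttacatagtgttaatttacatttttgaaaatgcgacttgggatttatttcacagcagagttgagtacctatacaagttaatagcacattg
Dhx9 intron, last 100 bases: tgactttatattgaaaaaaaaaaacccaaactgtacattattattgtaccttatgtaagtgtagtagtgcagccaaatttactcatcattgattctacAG
TDP-43 is known to bind UG repeats, and the whole intron held 1 TGTG and no TGTGTG. Over 42 such introns in 17 members, 11 held TGTGTG (26.2%), against 29.9% of 6629 introns in 2685 genes.

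Dhx30, a helicase needed for assembly of the mitochondrial ribosome, was examined in both tables. The gene (ENSMUSG00000032480.17, chromosome 9, 110084320 to 110117830) had 122.9, 138.6 and 147.3 CPM in Control gRNA and 85.0, 96.7 and 112.0 in Tardbp gRNA, with no overlap (log2 fold change -0.50, SE 0.057, edgeR adjusted p 1.27e-06). Its transcript Dhx30-208 nevertheless rose from 2.67 ± 0.49 to 4.12 ± 0.98 CPM (means ± SD of 8 libraries; log2 fold change 0.63, edgeR adjusted p 0.018), and its share of the gene rose from 0.0196 ± 0.0035 to 0.0431 ± 0.0096 (limma adjusted p 0.0021). In the authors' table of Psi (percent spliced in, given as a fraction and as 1 value for each group of 8, with columns assigned to groups from the text of the study), the intron that Dhx30-208 keeps (chr9:110115162-110115490, minus strand, 329 bases) went from 0.253 to 0.404 at a probability of 0.902. It lies 85 bases before the nearest annotated start codon, within the untranslated leader, and has 33.7% GC, 3 TGTG and no TGTGTG. The splice sites at its ends are, with GT and AG in capitals:
Dhx30 intron, first 30 bases: GTaaggtgacttagccctgctcatagagcc
Dhx30 intron, last 30 bases: tttgatatcttgaatctcatattttttgAG
Psi had no value per library here, so inclusion was rebuilt from the deposited transcript counts. It was 0.219 ± 0.210 in Control gRNA and 0.263 ± 0.090 in Tardbp gRNA (means ± SD of 8 libraries; limma adjusted p 1.0). Control 1 stood at 0.734 and the other 7 Control libraries at 0.112 to 0.202. Without Control 1 the Control mean was 0.145 and the difference 0.118 (limma adjusted p 0.28).

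The study asked for a probability above 0.9, a change of Psi by more than 0.1 and more than 50 reads in total. The table of Psi used here has no column of reads, so the last was not applied, and 2 of 789 member nodes were past the other two, against 0.473% of all nodes. They were the Dhx30 intron and a core exon of Ddx43. The Ddx43 exon (chr9:78411592-78411748, plus strand) is exon 6 of 17 of Ddx43-201, coding, and its 157 bases are not a multiple of 3. Its Psi went from 0.496 to 0.808 at a probability of 0.909. It is shown because it is the member exon with the widest difference, with TGTG in capitals:
Ddx43 exon 6: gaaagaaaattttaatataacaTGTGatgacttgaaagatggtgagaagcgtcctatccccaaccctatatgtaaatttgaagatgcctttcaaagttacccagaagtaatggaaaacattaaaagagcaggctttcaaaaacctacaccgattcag
The following exon went from 0.575 to 0.830 (probability 0.852) and the exon at 78419212 to 78419350 from 0.833 to 0.571 (0.803), both outside the thresholds. The depth behind each Psi is unknown, and with 40 to 296 counts of Ddx43 per library few reads can cross each exon. Ddx43 has 1 annotated transcript in the counts, so its inclusion could not be rebuilt.

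Of 732 core exon nodes, 662 had a Psi over 0.95 in Control gRNA (median 0.994) and 642 in both groups. Of all 789 nodes, 17 in 7 genes differed by more than 0.1, and 1 node in a further gene, Dhx8, had a probability over 0.9 with a small fall, from 0.996 to 0.964. The nodes just outside the thresholds included 3′ end pairs of Ddx19b (0.513 to 0.402 and 0.487 to 0.598) and Dhx33 (0.406 to 0.281 and 0.593 to 0.719), with probabilities of 0.750 to 0.801. In Dhx9, 6 of the later core exons fell by more than 0.05, the widest (chr1:153459558-153459719) from 0.977 to 0.902 at a probability of 0.805. Of the core exon nodes of members, 85.8% were lower in Tardbp gRNA, as were 69.9% of those of all genes. Rebuilt inclusion could be formed for 90 member nodes and called 0 of them with limma, against 0.151% of 21874 nodes. At an adjusted p under 0.05 with no minimum difference the count was also 0, and 7 member nodes had an unadjusted p under 0.05.

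The authors' sample sheet gives a letter, M or F, for each library in a column headed sex. Control libraries had 3 M and 5 F, and Tardbp libraries 5 M and 3 F. The interaction of guide and letter was tested with edgeR, and 0 of 48 members and 0 of 16650 genes were called, with 2 members at an unadjusted p under 0.05. With the letter as a covariate 35 members were called, 32 of them lower, and 44.2% of all genes. The 4 lost calls were Ddx24, Ddx55, Dhx16 and Dhx57.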

How the data were processed

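RNA of sorted CD8+ T cells was amplified with SMART-Seq v4, made into libraries with Nextera XT and read as pairs of 100 bases, in 8 Control gRNA and 8 Tardbp gRNA libraries. The authors aligned reads with HISAT2 2.1.0 to mm10 and deposited estimated counts per gene and per transcript from StringTie 2.1.0 (SAMtools 1.9, per the submitters' processing notes). Reads that fit several transcripts are split by an estimate, so a transcript's count is less certain than its gene's. The authors also deposited Psi per node, a fraction, from Whippet (version not given in the sources used here), with the probability of a difference, also a fraction, and a complexity score that was not used here. The sequencing annotation gives the read count and RNA concentration of each library, and the authors' sample sheet gives its letter. Another 10 count columns belonged to no sample here and were not used.

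Genes were tested with edgeR 4.0.16 (quasi-likelihood, TMM factors, filterByExpr with a minimum count of 10, minimum total of 15 and proportion of 0.7) over the whole table in R 4.3.3, with Benjamini-Hochberg adjustment and a threshold of 0.05. Transcript shares, rebuilt inclusion (mean count of at least 50) and retained-intron shares were tested with limma 3.58.1. DESeq2 1.42.0 was an alternative. Other alternatives were other size factors, no filter, a replicate block, covariates, subsets of libraries and each library left out. The steps were tested on simulated data. Promoter windows came from RefSeq (GRCm38.p6). The members, roles and lists were chosen with earlier results of these data known. The genes named by rule were Tardbp, Dhx30, members with a node past the probability and Psi thresholds (no minimum of reads was applied here), called members whose log2 fold change ranked in the top 10 or bottom 10 (mean log2 CPM 3 or more), the largest called change in each role, the 5 highest levels per kb, members that failed the filter, and the highest and lowest called gene of each other list. Other members were named after their values were seen. Replicate numbers did not pair the libraries.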

Additional observations from a re-analysis of the deposited data

Results flagged for a closer look

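Among 68 groups of 8 libraries examined for a single library far from the others, 7 held one, where chance gives about 1 in 20 groups, or 3.4. Tardbp library 3 stood apart for 3 helicase genes. It had 43.6 CPM of Ddx19a (other Tardbp libraries, 48.5 to 52.5), 33.9 CPM of Dhx29 (44.0 to 51.5) and 35.9 CPM of Ddx55 (28.6 to 31.5). Tardbp library 2 had 43.7 CPM of Pdcd4 (other Tardbp libraries, 53.1 to 61.0) and 20.6 CPM of Gpatch1 (14.5 to 17.2). Retained-intron transcripts made up 14.7% of the Dhx30 counts in Tardbp library 8 and 4.95 to 8.67% in the other Tardbp libraries. The rebuilt inclusion of the Dhx30 intron was 0.734 in Control library 1 and 0.112 to 0.202 in the other Control libraries.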

How the results depend on the processing

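Of the 39 member genes called, 35 of them lower, 17 were called (16 lower) with the RNA concentration as a covariate, 11 (10 lower) in libraries 1 to 3 alone and 32 (30 lower) in libraries 4 to 8 alone. The counts were 36 to 39 (33 to 36 lower) with each library left out (all genes, 43.3% to 45.7%). They were 36 (30 lower) with upper-quartile factors (all genes, 47.8%) and 36 without a filter (all genes, 25.1%). With DESeq2 39 were called (all genes, 38.3%), and with a replicate block 38, of which 34 were lower (all genes, 45.9%). The replicate numbers did not pair the libraries (correlations of deviations from -0.0048 to 0.16, with 2 of 8 over 0.1, and not every library correlated best with its own number). For 29 of the genes named by rule, 700 of 754 alternatives stayed on the same side of the threshold, 54 kept the direction but lost the call and 0 calls reversed. Ddx5, which was not called, had the other sign in 9 of these, and Ddx4 was not tested. Of the 2 nodes past the probability and Psi thresholds, 0 passed at a probability over 0.95, 0 at over 0.99 and 1 at a Psi difference over 0.2. The difference in rebuilt inclusion of the Dhx30 intron was 0.0447, -0.0117 with counts not divided by transcript length and 0.118 without Control 1, and the cause was not tested. The 5 members with a higher retained-intron share were 0 with the RNA concentration and 0 in libraries 1 to 3 alone, where fewer samples entered, 5 with a replicate block and 6 without Tardbp 8, all chosen after seeing the data. Shares called were 2 of 3 with the block. Low counts limit Ddx43, Ddx25 and Ddx4, and the depth behind Psi is unknown.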
